A study of Mus musculus with 6 samples.

Results

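Mecom and Prdm16 are paralogous genes of the PRDM family, and their expression is described here in lip tissue of Gtf2ird1 knockout (KO) and wild type (WT) mice. They were 2 of the 26814 gene symbols in the count matrix. Mecom was chosen because its counts were about 20 times higher in the libraries labelled KO, so that its difference between genotypes is given as a description without a test, and Prdm16 was taken as its close paralogue. The top lip was dissected from adult female mice on the C57BL/6J background, aged 2 to 6 months. The 3 KO mice carried the Gtf2ird1 tm1Hrd allele and the 3 WT mice had the wild type genotype, with 1 mRNA library per mouse. In bulk tissue, fewer cells of a type and less RNA per cell cannot be told apart.

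Each library held 20164081 to 29491767 counts on genes. Gtf2ird1, the targeted gene, was at 78.2, 70.2 and 70.7 CPM (counts per 1000000 counts of the library) in WT and at 166, 162 and 144 CPM in the libraries labelled KO. The targeted gene was thus higher, not lower, in the KO libraries (log2 fold change 1.11, SE 0.13, adjusted p = 0.0018, edgeR's quasi-likelihood test with Benjamini-Hochberg adjustment), and a count over the whole gene does not show whether the transcript is intact. The groups below are therefore those of the labels. Markers of basal keratinocytes, among them Krt5 and Krt14, and of suprabasal keratinocytes, among them Krt1 and Krt10, were abundant. Their lists, which also hold genes other than keratins, summed to 11066 to 12570 CPM and 18088 to 44847 CPM per library. The library labelled KO replicate 3 stood apart: without it, 33.0% of the tested genes passed an adjusted p of 0.05, against 6.47% of the 15009 tested genes with all libraries and 1.53% to 3.64% when 1 of the others was left out.

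Mecom encodes EVI1, a transcription factor with separate groups of zinc fingers that is needed by blood stem cells and is known for its activation in leukaemia. A start site far upstream gives a longer form, MDS1-EVI1 or PRDM3, that carries a PR domain, the module for which the family is named and which is related to the catalytic domain of histone methyltransferases. Prdm16 has the same plan and is known as a regulator of brown fat identity and of craniofacial development. Both proteins recruit CtBP corepressors and histone modifying enzymes, and both can bind Smad proteins, which carry TGF-beta signals to the nucleus. Counts per gene do not separate the long and the short forms.

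The sequences around the starts are shown because they show both the split between the forms and the relationship between the paralogues. RefSeq (GRCm38.p6) gave Mecom start sites 497 kb apart, and the upstream one, which lies at the start of the long form, is at chr3:30509710-30510009 on the minus strand. The downstream start of the short form is at chr3:30013155-30013454, also on the minus strand. The start of Prdm16 is at chr4:154636824-154637123 on the minus strand. Each window runs from 250 bases before to 50 bases after the start, 5′ to 3′ along the gene. Capitals mark the longest run of identical bases between the upstream Mecom window and the Prdm16 window.

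Mecom upstream start: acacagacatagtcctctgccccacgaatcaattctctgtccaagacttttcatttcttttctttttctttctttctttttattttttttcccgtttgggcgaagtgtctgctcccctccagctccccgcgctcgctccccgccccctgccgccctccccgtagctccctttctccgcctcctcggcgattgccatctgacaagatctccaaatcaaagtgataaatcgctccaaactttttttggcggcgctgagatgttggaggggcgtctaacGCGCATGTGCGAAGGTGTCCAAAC
Mecom downstream start: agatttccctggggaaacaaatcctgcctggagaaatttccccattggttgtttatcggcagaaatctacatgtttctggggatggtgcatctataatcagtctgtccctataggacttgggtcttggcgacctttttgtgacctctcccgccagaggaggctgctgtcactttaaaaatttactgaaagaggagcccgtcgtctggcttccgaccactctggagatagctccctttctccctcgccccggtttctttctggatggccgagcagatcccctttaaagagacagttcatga
Prdm16: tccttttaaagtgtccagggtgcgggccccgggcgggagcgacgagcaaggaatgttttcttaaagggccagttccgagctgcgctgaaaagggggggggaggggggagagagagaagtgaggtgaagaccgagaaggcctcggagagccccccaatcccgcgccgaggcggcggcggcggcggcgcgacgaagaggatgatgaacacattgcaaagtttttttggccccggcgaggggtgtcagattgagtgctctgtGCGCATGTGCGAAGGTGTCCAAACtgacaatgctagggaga

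The shared run was 24 bases long. It covered bases 27 to 50 counted from the upstream Mecom start and bases 10 to 33 counted from the Prdm16 start. Base 50 is the last of the Mecom window, so whether the identity continues beyond it is not seen here. It was found in 2 of the 32851 start windows in the RefSeq table (0.00609%), which are these windows themselves. The downstream Mecom window shared no run longer than 7 bases with the Prdm16 window. Guanine and cytosine made up 52.0% of the upstream Mecom window, 49.7% of the downstream window and 61.0% of the Prdm16 window, beside a median of 52.7% over all windows. Searched on both strands, none of the 3 windows held GGATTA, a core sequence bound by GTF2IRD1 that 7.06% of all windows held. None held GACAAGATA, bound by the first zinc finger group of EVI1 and present in 0.119% of windows, or GAAGATGAG, bound by the other group and present in 0.399%. No motif contains another, and their absence says only that these letters are not in these windows.

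Mecom transcripts were scarce in WT lip and far more numerous in every library labelled KO. Mecom (ENSMUSG00000027684.16) lies on the minus strand of chromosome 3, from 29951296 to 30548008 in GRCm38, a span that runs 38.2 kb beyond the upstream RefSeq start. GENCODE M21 gives it 12427 exonic bases and 11 protein-coding transcripts. The counts were 45, 55 and 49 in WT and 979, 1393 and 685 in KO. Scaled for depth, Mecom was at 1.63, 2.34 and 2.20 CPM in WT (2.06 ± 0.374, SD, n = 3) and at 50.1, 45.8 and 31.3 CPM in KO (42.4 ± 9.84, SD, n = 3). The groups did not overlap, and the lowest KO library stood 13.4-fold above the highest WT library. Across all tested genes, the groups failed to overlap for 31.5%, from which nothing is read here because the gene was chosen on this contrast.

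The fitted difference for Mecom was 4.37 on the log2 scale (SE 0.25), a fold of 20.6. KO replicate 3 was the lowest of its group at 15.2-fold over the WT mean, beside 24.3-fold and 22.2-fold in KO replicates 1 and 2. Leaving this library out gave a log2 fold change of 4.55. The coefficient of variation was 18.2% in WT, where counting alone accounts for 14.2%, and 23.2% in KO, where counting alone accounts for 3.27%. 

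Prdm16, the paralogue, was expressed above Mecom in WT and did not pass the test between genotypes. Prdm16 (ENSMUSG00000039410.16) lies on the minus strand of chromosome 4, from 154316125 to 154636873, and has 9321 exonic bases and 7 protein-coding transcripts. It was at 7.95, 4.63 and 6.30 CPM in WT (6.29 ± 1.66, SD, n = 3) and at 7.73, 9.01 and 9.42 CPM in KO (8.72 ± 0.883, SD, n = 3). The groups overlapped, since WT replicate 1 lay above KO replicate 1. The log2 fold change was 0.47 (SE 0.23, adjusted p = 0.202, edgeR's quasi-likelihood test), with a 95% interval from -0.05 to 0.99. An exact two-sided permutation test of the log2 CPM gave p = 0.2, where the smallest p that 3 against 3 libraries allow is 0.1. Its WT values varied by 26.3%, beside 8.34% from counting alone.

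The order of the paralogues turned over between the groups. Per kilobase of exon, the Mecom level was 0.131, 0.188 and 0.177 CPM per kb in WT and 4.03, 3.69 and 2.52 CPM per kb in KO. The Prdm16 level was 0.853, 0.497 and 0.676 CPM per kb in WT and 0.829, 0.966 and 1.01 CPM per kb in KO. The Mecom level was thus 0.154, 0.378 and 0.263 times that of Prdm16 in the WT libraries and 4.86, 3.81 and 2.49 times that of Prdm16 in the KO libraries. Among the 14223 tested genes with a length, 1.20% had a lower level per kilobase than Mecom in WT and 38.0% in KO. The same shares for Prdm16 were 10.6% in WT and 14.4% in KO, so that Mecom moved from the low end of the tested genes toward their middle and Prdm16 stayed low.

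**Figure D1:**
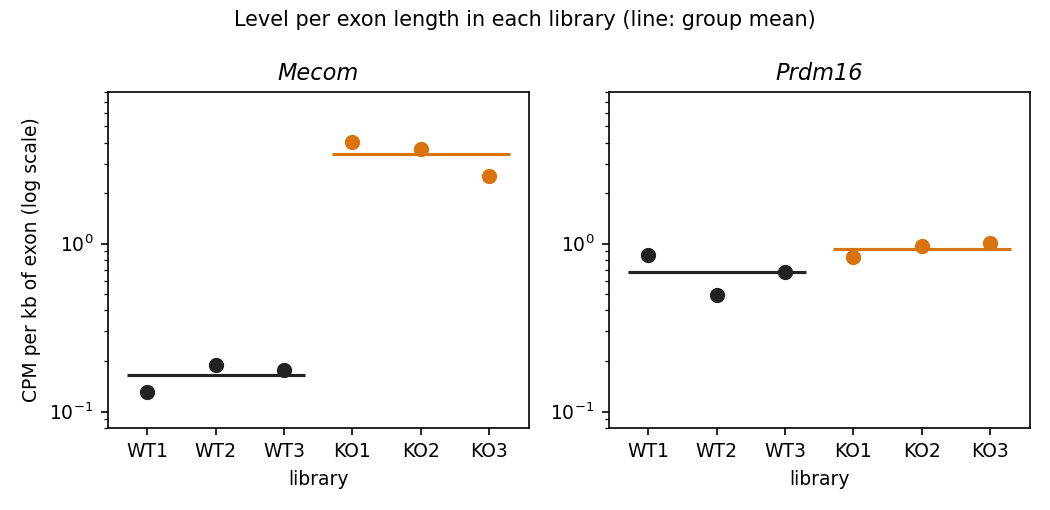
CPM per kb of exon of Mecom (left) and Prdm16 (right) in each library, on a log axis, with 1 point per mouse and a line at each group mean. Mecom sits between 0.131 and 0.188 in WT and between 2.52 and 4.03 in KO, whereas the Prdm16 points of both groups lie between 0.497 and 1.01 and overlap.

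**Figure D2:**
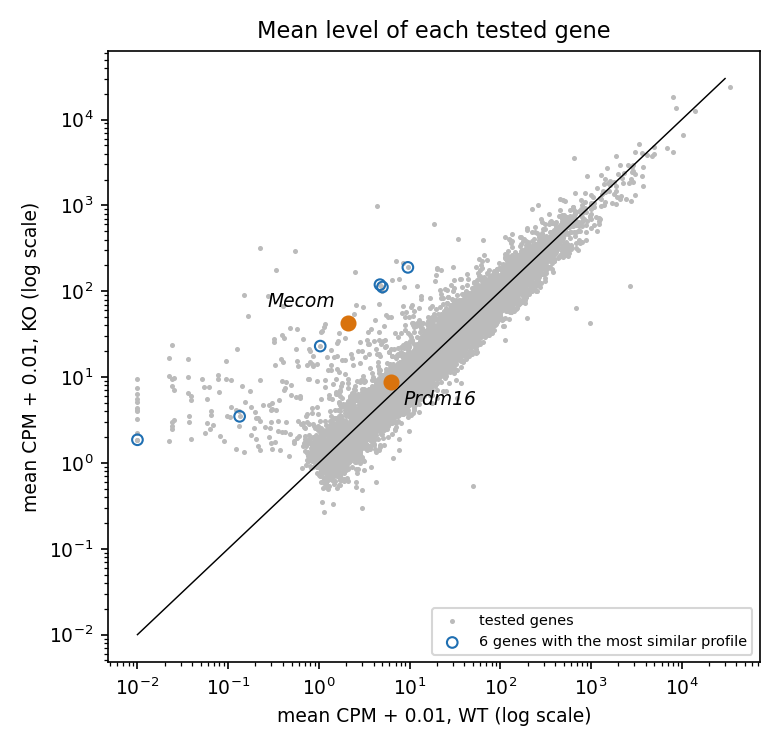
Mean CPM in WT (horizontal) against mean CPM in KO (vertical) for all tested genes, both on log axes after adding 0.01 CPM, with Mecom and Prdm16 marked, open circles on the 6 genes whose profile was most like that of Mecom, and the line of equal levels drawn. Mecom lies at 2.06 and 42.4 CPM, far above the line, and Prdm16 lies at 6.29 and 8.72 CPM, close to it.

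By fitted log2 fold change, Mecom ranked 105 of the 15009 tested genes. Just above it was the pseudogene Gm6189 at 4.37 and just below it was Lmx1a, a LIM homeobox transcription factor, at 4.33. Of the 104 genes with a larger fold change, 49 had at most 3 counts in every WT library, and 11 had a WT mean at or above that of Mecom. These are descriptions of the contrast that chose the gene.

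The other genes of the PRDM family did not pass the test. Of 14 family members other than Mecom that were looked for, 13 were in the matrix, 10 were expressed highly enough to be tested and 0 were called, beside 6.47% of all tested genes (edgeR's quasi-likelihood test). At an unadjusted p under 0.05 stood 1 of the 10, beside 29.6% of all tested genes, and both edgeR's exact test and DESeq2 called 0, beside 14.9% and 14.2% of all genes they tested. Their log2 fold changes ran from -0.73 for Prdm8 to 0.47 for Prdm16, with a median of 0.12 beside -0.02 for all tested genes. Prdm1 (Blimp1), which acts in sebaceous gland and keratinocyte differentiation, was the most abundant member at 105, 87.9 and 88.4 CPM in WT and 104, 116 and 68.8 CPM in KO (log2 fold change 0.04, adjusted p = 0.916). Its groups overlapped fully, with KO replicate 3 the lowest library. Prdm2 was at 76.7 ± 3.33 CPM in WT and 74.6 ± 8.32 CPM in KO (SD, n = 3). Prdm4 was at 32.2 ± 4.42 and 40.4 ± 6.45 CPM (log2 fold change 0.33, adjusted p = 0.232). Prdm15 was at 17.1 ± 2.57 and 23.2 ± 3.57 CPM (log2 fold change 0.44, SE 0.18, adjusted p = 0.152). Among the untested members, Prdm12 and Prdm14 stood at 0 or 1 count in every library. Without KO replicate 3, 2 of the family were called, Prdm15 higher and Prdm8 lower, at a background of 33.0%.

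None of the tested genes around Mecom was called. The comparison took the gene that overlaps it and the 10 counted genes on each side, over 3.10 Mb. Of these 21 genes, 8 were tested and 0 were called by edgeR's quasi-likelihood test (6.47% of all tested genes), with 1 at an unadjusted p under 0.05 (29.6% of all) and 0 called by the exact test (14.9%) or DESeq2 (14.2%). Their log2 fold changes ran from -0.12 for Eif5a2 to 0.62 for Sec62, with a median of 0.24. Gm10258, which lies within Mecom on the same strand, had 3, 1 and 2 counts in WT and 0 in each KO library. These are too few to test or to say whether it shared the rise in Mecom counts. Mecomos and Gm37024, which the annotation places on the opposite strand, and other transcripts on the same strand were not analysed here. Whether the counting used strand is not given in the sources used here, so reads from opposite strands may not be told apart.

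On the side of the upstream start, the nearest gene was Actrt3, 49.1 kb away, at no more than 0.0915 CPM in any library. Next to it, Mynn, a zinc finger gene 54.1 kb from Mecom, was at 13.0, 18.4 and 15.4 CPM in WT and 25.5, 23.2 and 15.4 CPM in KO (log2 fold change 0.45, SE 0.22, adjusted p = 0.214). KO replicates 1 and 2 were above every WT library and KO replicate 3 was not. Lrrc34 followed, at 0.117 CPM in WT and 0.105 CPM in KO on average. On the other side, Egfem1, 260 kb away, averaged 0.374 CPM in WT and 0.233 CPM in KO, and Gm1527 had a single count in 1 library. Rpl22l1, a ribosomal protein gene, averaged 95.3 ± 8.40 and 97.3 ± 7.30 CPM (log2 fold change 0.03, adjusted p = 0.895). Without KO replicate 3, when 33.0% of all tested genes were called, 4 of the 8 tested neighbours, Phc3, Sec62, Mynn and Pld1, were called higher, and Sec62, which encodes a subunit of the protein translocation machinery of the endoplasmic reticulum, then had a log2 fold change of 0.87, against 0.62 with all libraries (adjusted p = 0.145).

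Around Prdm16, 22 genes were counted, 10 were tested and 0 were called (6.47% of all tested genes), with 2 at an unadjusted p under 0.05 (29.6%), 0 called by the exact test (14.9%) and 1 by DESeq2 (14.2%). Their log2 fold changes ran from -0.53 for Fam213b (adjusted p = 0.0638) to 0.06, with a median of -0.20. The overlapping Gm13133 and Gm13134 stood at no more than 0.0899 CPM in any library. Of the 3 nearest genes on the side of the gene's end, Arhgef16 had a log2 fold change of -0.14 and Megf6 of -0.06, while Gm13132 had at most 1 count in any library. Gm13111, Gm13110 and Ttc34, the nearest on the side of the start, averaged at most 0.618 CPM in either group. Without KO replicate 3, 2 of the 10, Fam213b and Tprgl, were called lower, at a background of 33.0%.

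**Figure D3:**
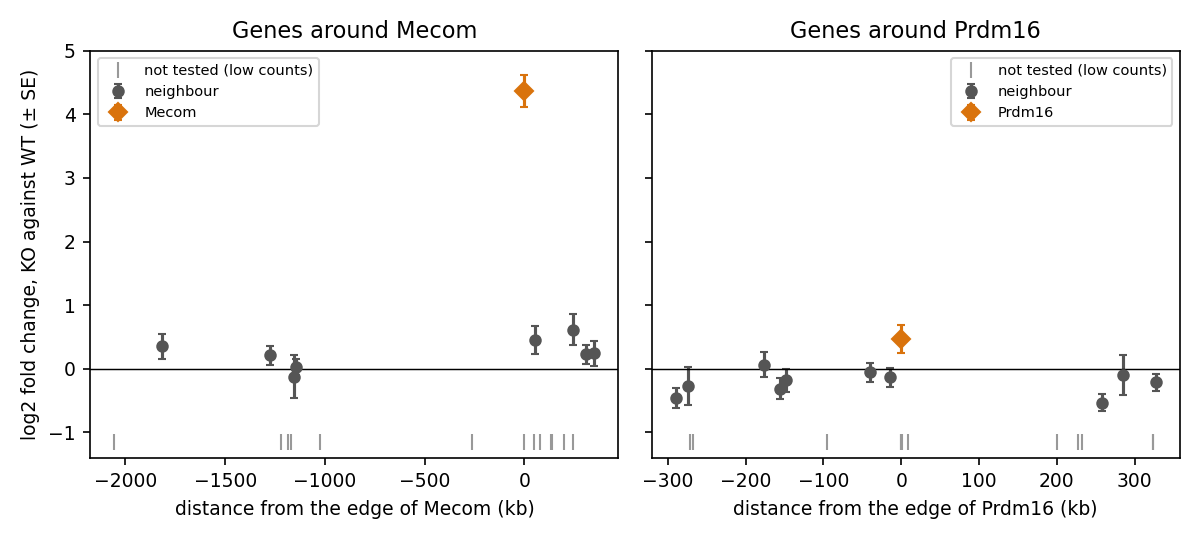
Log2 fold change of KO against WT (vertical) for the tested genes around Mecom and around Prdm16, placed by their distance from the gene in kb (horizontal), with bars of 1 SE, grey ticks at genes too low to be tested and a diamond for the gene itself. The 8 genes around Mecom lie between -0.12 and 0.62 and the 10 around Prdm16 between -0.53 and 0.06, beside 4.37 for Mecom itself.

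The genes whose profile over the 6 libraries was most like that of Mecom lay on other chromosomes. Likeness was the root mean square distance between log2 CPM profiles after each gene's mean was removed, a measure that ignores the level and that the choice of Mecom makes a description. Dhtkd1, a mitochondrial dehydrogenase component of lysine breakdown on chromosome 2, was nearest at a distance of 0.137. It was at 9.11, 9.27 and 10.3 CPM in WT and at 221, 206 and 142 CPM in KO. Its order within the KO group was that of Mecom, with replicate 1 highest and replicate 3 lowest.

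Next came B020004J07Rik on chromosome 4 at a distance of 0.155, with 3 counts in each WT library and a mean of 3.48 ± 0.825 CPM in KO. Echdc3, an enoyl-CoA hydratase domain gene on chromosome 2, followed at 0.196, with means of 5.01 ± 0.495 CPM in WT and 112 ± 22.2 CPM in KO. Gm15762 on chromosome 6 followed at 0.205, with 0 counts in every WT library and 1.85 ± 0.635 CPM in KO. Colgalt2, a collagen galactosyltransferase gene on chromosome 1, stood at 0.211, with 4.70 ± 0.867 and 119 ± 42.6 CPM. Prelid2, on chromosome 18, stood at 0.218, with 1.02 ± 0.247 and 22.9 ± 8.77 CPM. In each of the 6 genes KO replicate 1 was the highest library and KO replicate 3 the lowest KO library. For comparison, the profile of Prdm16 was 1.96 away from that of Mecom and the median over all tested genes was 2.19.

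**Figure D4:**
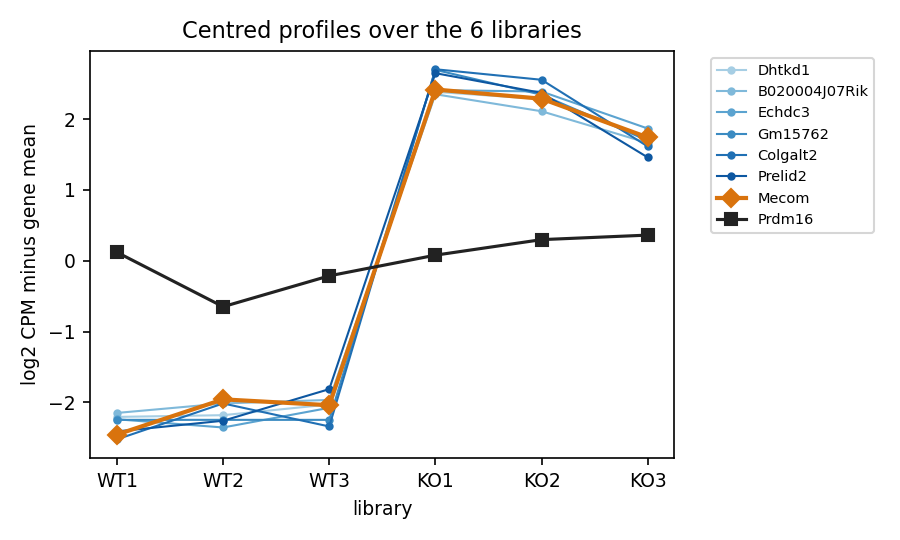
Log2 CPM of Mecom, Prdm16 and the 6 genes most like Mecom in each of the 6 libraries, after removing each gene's mean over the libraries. The 6 genes and Mecom run together, low in WT and high in KO with KO replicate 3 the lowest of its group, and Prdm16 stays near 0.

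The partners of EVI1 and PRDM16 were expressed in lip and none passed the test. Their WT means ran from 4.37 CPM for Dnmt3b to 184 CPM for Smarca4. Of 15 corepressor and chromatin genes, 15 were tested and 0 were called by edgeR's quasi-likelihood test, with 4 at an unadjusted p under 0.05, 0 by the exact test and 1 by DESeq2. The shares over all tested genes were 6.47%, 29.6%, 14.9% and 14.2% in the same order. Their log2 fold changes ran from -0.50 for Dnmt3a to 0.52 for Hdac2, with a median of 0.02. Ctbp1, the corepressor that both proteins bind, was at 177, 132 and 177 CPM in WT and 108, 122 and 169 CPM in KO (log2 fold change -0.28, SE 0.20, adjusted p = 0.372). The groups overlapped, with KO replicate 3 at the WT level. Its relative Ctbp2 was at 27.4 ± 1.72 and 29.5 ± 2.32 CPM (log2 fold change 0.11, adjusted p = 0.623). The most abundant of the others were Smarca4, the ATPase of a chromatin remodelling complex, at 184 ± 14.9 and 198 ± 21.9 CPM, Ehmt2, a histone methyltransferase, at 127 ± 10.9 and 109 ± 12.9 CPM, and Ep300, a histone acetyltransferase, at 125 ± 2.31 and 127 ± 5.30 CPM. Without KO replicate 3, 3 of the 15 were called, Hdac2 and Setdb1 higher and Dnmt3a lower, at a background of 33.0%.

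Of the Smad proteins and the Ski corepressors, which bind Smads as EVI1 does, 10 were tested and 0 were called by edgeR's quasi-likelihood test, with 5 at an unadjusted p under 0.05, 1 by the exact test and 2 by DESeq2. Over all tested genes the corresponding shares were 6.47%, 29.6%, 14.9% and 14.2%. The median log2 fold change was -0.24. Ski itself was at 251, 214 and 234 CPM in WT and 146, 169 and 216 CPM in KO (log2 fold change -0.39, SE 0.17, adjusted p = 0.163). KO replicates 1 and 2 lay below every WT library and KO replicate 3 did not. Smad3, the TGF-beta effector whose activity EVI1 is known to repress, was at 50.4, 45.2 and 46.4 CPM in WT and 25.6, 33.8 and 41.9 CPM in KO. Its groups did not overlap, as for 4 of the 10 listed genes and 31.5% of all tested genes. The difference did not pass (log2 fold change -0.49, SE 0.19, adjusted p = 0.132). Smad6, an inhibitory Smad, had the lowest adjusted p of the list, at 16.0, 10.9 and 18.2 CPM in WT and 6.50, 8.65 and 10.7 CPM in KO (log2 fold change -0.80, adjusted p = 0.0893), and was the gene that the exact test called. Smad5, Smad4 and Smad1, the most abundant Smads, differed by 0.08, -0.09 and -0.03 on the log2 scale. Without KO replicate 3, 5 of the 10 were called, Smad2 and Skil higher and Smad3, Smad6 and Ski lower, in a fit that called 33.0% of all tested genes.

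Among genes linked to EVI1 in blood cells, 1 was higher and 2 were lower in KO. Of 20 symbols, 19 were in the matrix and 16 were tested, so that the 3 calls stand beside 4.38% of all tested genes called higher and 2.09% called lower. The median log2 fold change was -0.17. Serpinb2, an inhibitor of plasminogen activators that is also made by keratinocytes, rose. It was at 43.8, 79.9 and 41.2 CPM in WT and 169, 139 and 97.9 CPM in KO (log2 fold change 1.30, SE 0.30, adjusted p = 0.0433). Every KO library lay above every WT library, an order that 13.5% of all tested genes showed. Zbtb16, the zinc finger gene Plzf, fell, from 24.7, 56.0 and 15.8 CPM in WT to 9.16, 8.61 and 9.88 CPM in KO (log2 fold change -1.80, SE 0.42, adjusted p = 0.0442). The WT libraries varied widely, and the KO libraries were alike. Bcl2l1, which encodes the survival factor Bcl-xL, fell, from 64.0 ± 6.63 CPM in WT to 42.4 ± 3.67 CPM in KO (log2 fold change -0.59, SE 0.14, adjusted p = 0.0457).

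These calls were close to the threshold, and each was lost in most of the fits that leave out 1 library. Such fits called 1.53% to 3.64% of all tested genes, apart from the fit without KO replicate 3, which called 33.0%. Serpinb2 was called in 2 of the 6 fits that leave out 1 library, once with WT replicate 2 and once with KO replicate 3 removed, and its adjusted p reached 0.170 without WT replicate 1. Zbtb16 was called in those that removed WT replicate 3 or KO replicate 3, and without WT replicate 2 its log2 fold change was -1.08 (adjusted p = 0.0584). Bcl2l1 was called without KO replicate 3 only, while its log2 fold change stayed between -0.66 and -0.49 in these fits. With the replicate number as a block, Serpinb2 alone was called (5.31% of all tested genes). Serpinb2 alone was also called where each library had to hold 10 counts or more (4.57%), and Bcl2l1 alone where libraries were scaled by their size without TMM factors (5.51%). Gata2, a blood stem cell transcription factor that EVI1 is known to activate, was at 12.3, 10.7 and 12.6 CPM in WT and 5.42, 6.44 and 9.69 CPM in KO (log2 fold change -0.73, SE 0.23, adjusted p = 0.0925). All 3 KO libraries were below WT, where the groups of 31.5% of all tested genes did not overlap in 1 direction or the other. The difference did not pass, although edgeR's exact test, which called 14.9% of all genes, and the fit without KO replicate 3, which called 33.0%, both called Gata2 lower. Cebpa, Gpr56 and Itga6, among the most abundant of the list, had log2 fold changes of -0.01, -0.19 and 0.34. Hoxa9 and Gata1 were among those too low to be tested.

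**Figure D5:**
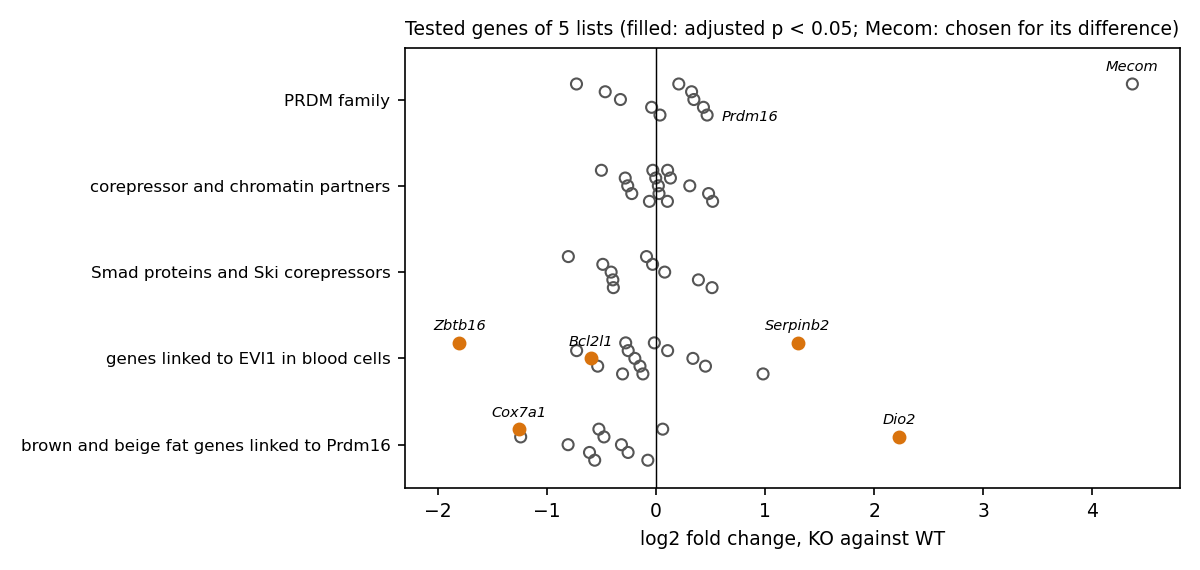
Log2 fold change of KO against WT (horizontal) for each tested gene of the PRDM family and of 4 gene lists, 1 row per list and 1 point per gene, filled where the adjusted p is under 0.05. Mecom stands at 4.37 and is drawn open whatever its p-value, because it was chosen for its difference. The other PRDM genes lie between -0.73 and 0.47, and the filled points are Serpinb2, Zbtb16, Bcl2l1, Dio2 and Cox7a1.

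Of genes of brown and beige fat, the programme for which Prdm16 is known, 1 rose and 1 fell. Of 14 genes 12 were tested, so that the calls stand beside 4.38% of all tested genes called higher and 2.09% called lower. A negative log2 fold change was found for 10 of the 12, beside 52.0% of all tested genes, and the median was -0.50. Dio2, the deiodinase that activates thyroid hormone, rose. It was at 10.3, 10.4 and 12.1 CPM in WT and at 60.5, 57.6 and 35.8 CPM in KO (log2 fold change 2.23, SE 0.22, adjusted p = 0.000893). The groups did not overlap, as for 31.5% of all tested genes. KO replicate 3 was again the lowest of its group, and the call held in each of the 6 fits that leave out 1 library. Cox7a1, a subunit of cytochrome oxidase found in muscle and brown fat, fell, from 88.4, 52.8 and 82.7 CPM in WT to 21.6, 28.7 and 43.5 CPM in KO (log2 fold change -1.25, SE 0.29, adjusted p = 0.0433). It was called in 1 of the 6 such fits, the one without KO replicate 3 (-1.56). Beside it, a list of skeletal muscle markers summed to 12077 to 15168 CPM in WT and 5961 to 9347 CPM in KO, with 2 of 9 tested markers, Tnnt3 and Tnni2, called lower, and their part in the result was not tested. Ucp1, the uncoupling protein that defines brown fat, was near the floor at 0.436, 0.298 and 0.270 CPM in WT and 1.38, 1.28 and 0.732 CPM in KO. It was too low to enter the main fit. DESeq2, which called 14.2% of all genes it tested, and the fit without a filter, which called 4.17%, called Ucp1 higher. Elovl3, Cidea and Cox8b, the other abundant members, had log2 fold changes of -0.61 (adjusted p = 0.0808), -0.48 (adjusted p = 0.136) and -1.24 (adjusted p = 0.0605). Without KO replicate 3, 7 of the 12 were called, at a background of 33.0%.

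Markers of cell types in which Mecom or Prdm16 is known to be expressed were measured in the same libraries, where 4.38% of all tested genes were called higher and 2.09% lower. For blood stem and progenitor cells, the summed level of the list was 309.9 to 387.3 CPM in WT and 217.9 to 261.1 CPM in KO, and 1 of the 7 tested markers was called, higher. This was Slamf1, with 2, 9 and 1 counts in WT and 153, 44 and 91 counts in KO (log2 fold change 4.70, adjusted p = 0.0156), and its adjusted p was 0.0933 without WT replicate 1. Slamf1 reached 1 CPM only in the KO libraries. It thus entered the test through the group where it is high, and nothing is read from its call. Gfi1b, another marker of this list, was at no more than 0.230 CPM in any library. Of the 7 tested markers, 3 had a positive and 4 a negative log2 fold change, with a median of -0.56. For endothelial cells, 1 of 12 tested markers was called, Tie1, an endothelial receptor kinase, at 34.4 CPM in WT and 401 CPM in KO, while the other 11 markers summed to 322.1 to 370.3 CPM in WT and 222.0 to 347.5 CPM in KO. The list for respiratory and ciliated epithelium, which also holds the more general epithelial genes Krt8, Krt18 and Epcam, summed to 169.0 to 175.0 CPM in WT and 151.1 to 184.1 CPM in KO. In it 1 of 5 tested markers was called, Tekt1, a component of cilia, at 0.187 CPM in WT and 3.91 CPM in KO. Like Slamf1, Tekt1 reached 1 CPM only in the KO libraries, so that nothing is read from its call either. Foxj1, the regulator of ciliated cells, averaged 0.447 CPM in WT and 0.199 CPM in KO, and Bpifa1 was at 0 in all but 1 library.

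Of the remaining lists, that of salivary gland summed to 12.5 to 16.4 CPM in WT and 55.3 to 91.0 CPM in KO, and of its 2 tested markers 1, the water channel gene Aqp5, was called higher, at 10.6 CPM in WT and 68.7 CPM in KO. The salivary markers other than Aqp5 summed to 3.33 to 4.39 CPM in WT and 2.65 to 5.22 CPM in KO. White adipocyte markers, which include genes that Prdm16 opposes in brown fat, summed to 247.7 to 305.3 CPM in WT and 173.7 to 205.4 CPM in KO, with Fabp4 the 1 of 8 called, lower. Neuronal markers summed to 29.4 to 44.7 CPM and 30.8 to 37.4 CPM, with 0 of 1 tested marker called. The calls in these lists too stand beside 4.38% of all tested genes called higher and 2.09% called lower. In the epidermis, 1 of 7 basal markers (Dst) and 1 of 7 suprabasal markers (Ivl) were called higher, and the suprabasal list summed to 18088 to 22843 CPM in WT and 29166 to 44847 CPM in KO. The hair follicle list summed to 8071 to 10314 CPM and 5440 to 6968 CPM, with 1 of 8 called lower (Hoxc13). The calls of Fabp4, Dst, Ivl and Hoxc13 each held in 1 of the 6 fits that leave out 1 library, the one without KO replicate 3, as did those of the 2 muscle markers. The part of these shifts in the Mecom difference was not tested.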

How the data were processed

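Lip mRNA of 3 WT and 3 KO mice was sequenced by the authors on the Illumina HiSeq platform. The deposited values are raw counts per gene symbol, made by the authors from reads aligned to GRCm38/mm10 with TopHat2 2.0.8 and Bowtie2 2.1.0 and counted with HTSeq (submitters' processing notes). The strand setting is not given in the sources used here. Libraries held 20164081 to 29491767 counts, and 3 counts correspond to 0.0986 to 0.154 CPM, a floor that covers counting error only.

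The 15009 genes that reached 1 CPM in 3 or more libraries entered the test with edgeR 4.0.16 (R 4.3.3), using TMM scaling, the quasi-likelihood test and Benjamini-Hochberg adjustment over all tested genes, with calls at an adjusted p under 0.05. CPM are counts per 1000000 counts in tested genes, with each library size scaled by its TMM factor, and CPM per kb divides by the GENCODE M21 union exon length. Each library is 1 mouse, so p-values measure the spread between mice. The procedure was tested on simulated data.

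The members and gene lists were chosen with earlier results of these data known. Named genes were the members, Gtf2ird1, the overlapping and 3 nearest neighbours on each side, the called genes and up to 4 most abundant genes of each list, the 6 most alike profiles and the genes next to Mecom by fold change. Other genes named were chosen after their values were seen, and some list members are not reported here by name. Log2 CPM profiles used a prior count of 2. Alternatives were edgeR's exact test, DESeq2 1.42.0, other scalings, other filters, a replicate block and leaving out each library.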

Additional observations from a re-analysis of the deposited data

How the results depend on the processing

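The log2 fold change of Mecom was 4.35 to 4.41 under 7 alternatives to the main setting and 4.22 (without WT replicate 1) to 4.55 (without KO replicate 3) when 1 library was left out. That of Prdm16 was 0.47 to 0.52 and 0.35 to 0.67, with an adjusted p of at least 0.175 throughout. Counts of called list genes moved more, and the cause was not tested. DESeq2, which called 14.2% of all genes it tested, called 1 partner gene (Hdac2), 2 Smad and Ski genes (Smad6 and Smad2) and 1 Prdm16 neighbour (Fam213b). It also called 4 brown fat genes (Cox8b, Ucp1, Cox7a1 and Dio2). The exact test, which called 14.9% of all tested genes, called 1 Smad gene (Smad6), 4 EVI1-linked genes (Gata2 added) and 3 brown fat genes (Cox8b added). Of the EVI1-linked genes, scaling by library size alone left 1 call (5.51% of all tested genes). Keeping genes with 10 or more counts per library also left 1 (4.57%). When 1 library was left out, the calls ran from 0 to 2 in the PRDM family, 0 to 3 among partners and 0 to 5 among Smad and Ski genes. They ran from 0 to 4 among EVI1-linked genes, 1 to 7 among brown fat genes, 0 to 4 around Mecom and 0 to 2 around Prdm16. The highest count each time was without KO replicate 3, in a fit that called 33.0% of all tested genes. The fits without 1 of the other libraries called 1.53% to 3.64%.

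WT and KO libraries share replicate numbers, but the labels do not say that a number marks a litter or batch. Deviations of same-numbered libraries correlated at -0.192, 0.293 and 0.312, so the numbers were not taken as pairs. With the replicate block, 797 genes in all were called instead of 971, and 1 EVI1-linked gene instead of 3. KO replicates 1 and 2 both correlated best with WT replicate 2. Depth limited genes under about 1 CPM, among them Ucp1 and 13 of the 21 neighbours of Mecom, which were not tested in the main fit.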
